A study of Rattus norvegicus with 3 samples.

Results

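Myc and Mnt were described in FRSK, a line of fetal rat skin keratinocytes, as 2 of the 15037 genes that the array's annotation names. They were taken by symbol, and each is measured by 1 probe set (Myc, gene identifier 24577; Mnt, gene identifier 287521). The genes were chosen for their values in the comparisons below, so those values are a description and were not tested. The series has 1 array of unstimulated control cells, 1 of cells given the opioid pentapeptide Met-ENK (Met-enkephalin) and 1 of cells given β-END(1-9), a fragment of β-endorphin that starts with the residues of an enkephalin, each peptide at 100 nM for 24 h. All 3 cultures were grown in medium with serum. No time is recorded here for the control, and whether it received vehicle is unknown here. The spread between cultures was not measured, so no difference below has a replicate check, an error or a p-value. All values are deposited log2 signals or differences of them, and a difference of 1.5-fold (0.58 on the log2 scale) was used to call a gene higher or lower.

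Myc is a basic helix-loop-helix leucine zipper protein that binds DNA as a heterodimer with Max and raises the transcription of genes for growth, ribosome production and metabolism. Mnt, like the Mxd proteins, also pairs with Max, binds the same E-box sequence (CACGTG) and recruits Sin3 corepressors, so it competes with Myc for both partner and sites. In the epidermis, Myc is known for its part in the growth of basal keratinocytes and in their departure from the stem cell compartment.

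Over 23188 transcript clusters, the median log2 signal was between 5.93 and 5.97 on each array. The 23 background probe sets of the array had log2 signals from 2.51 to 7.57, the same on each array. Basal keratinocyte markers were present, with all 10 measured members above that range on every array and a median log2 signal of 15.4 on the control array. Immune and endothelial markers (6 of each measured) were within or below the background range on every array, as were all fibroblast and melanocyte markers except Col1a1, Col3a1 and Mitf. Counts used the 7519 genes with a mean log2 signal of at least 6.41, the median of the named genes. After Met-ENK, 52 were called higher and 453 lower, against 90 and 340 of the same genes after quantile normalization. For β-END(1-9) the counts were 42 and 171, against 62 and 114. In these bulk samples, fewer cells that express a gene and less RNA per cell cannot be told apart.

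The log2 signal of Myc was 13.73 in control cells, 13.44 after β-END(1-9) and 13.59 after Met-ENK. The control array was the highest of the 3 and the β-END(1-9) array the lowest, and all lay far above the background probe sets. The difference from control was -0.29 after β-END(1-9), or 1.23-fold lower, and -0.15 after Met-ENK, or 1.11-fold lower. Neither reached 1.5-fold. Between the peptides, Myc was 0.15 higher after Met-ENK than after β-END(1-9), a comparison in which 1.89% of genes were called higher and 2.7% lower. Differences of this size were common. The middle 95% of the 7519 genes lay between -0.57 and 0.32 after β-END(1-9) and between -0.79 and 0.43 after Met-ENK, so Myc was inside that range in both comparisons.

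For Mnt, the log2 signal was 7.64 in control cells and 8.43 on each peptide array. The control signal was just above the highest background probe set (7.57), and both peptide signals were clear of it. The 1153 probe sets named as negative controls had log2 signals from 1.91 to 18.80, so they do not mark a background limit. Mnt exceeded 74.8% of them in control cells, 84.2% after β-END(1-9) and 82.7% after Met-ENK. Mnt was thus a gene of low signal whose control value was the nearest to background. Its difference from control was 0.79 with either peptide, or 1.73-fold higher, against 0.692% of genes called higher after Met-ENK and 0.559% after β-END(1-9). Ordered by difference among the 7519 genes, it was number 17 from the highest after Met-ENK and number 15 after β-END(1-9). Mnt was chosen on these values, so its place in that order supports nothing by itself.

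The signals of Mnt on the 2 peptide arrays were exactly equal, so its difference between the peptides was 0. Such ties were frequent in the deposited values, where 21.5% of the 7519 genes had the same signal on both peptide arrays and 11.8% on all 3. Both differences from control also use the same control array. How the ties arose is unknown here, so the 0.79 was not counted as a pair of independent measurements. Of 1070 other genes with a mean log2 signal within 0.5 of that of Mnt, 7 were called higher after Met-ENK and 5 after β-END(1-9). Within that group, 66 were called lower after Met-ENK and 45 after β-END(1-9). Most calls were thus in the direction opposite to that of Mnt, as they were among the 7519 genes. The shares called lower were 6.17% and 4.21%, beside 6.02% and 2.27% of all genes. Those called higher were 0.654% and 0.467%, beside 0.692% and 0.559%. Without the signal filter, most β-END(1-9) calls were higher (397, against 296 lower). Most Met-ENK calls were lower there too (633, against 448 higher).

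**Figure D1:**
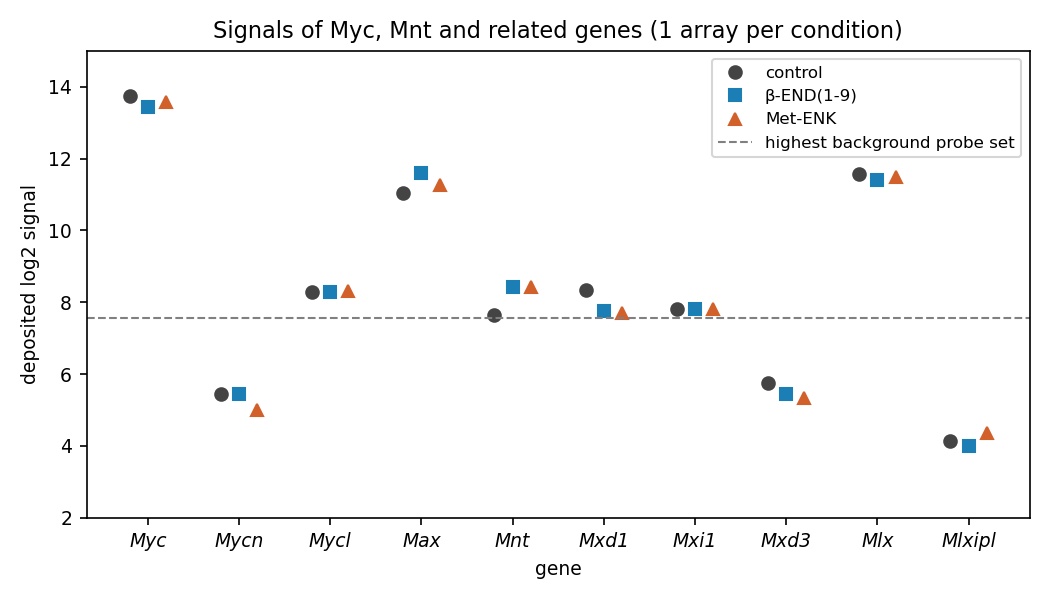
Deposited log2 signal (vertical axis) of the 10 measured genes of the Myc network (horizontal axis) on the control, β-END(1-9) and Met-ENK arrays, 1 point per array, with the highest background probe set (7.57) as a dashed line. Myc sits between 13.44 and 13.73, and Mnt moves from 7.64, beside the dashed line, to 8.43 on both peptide arrays; heights of different genes are not comparable, since each has its own probes.

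The sequences before the transcription start are shown for Mnt, Max and Mxd1, the network genes with the largest differences among those above background, because the E-box is the site for which Myc and Mnt compete. They are the 250 bases before the start in RefSeq, build GRCr8, 5′ to 3′ on the strand of the gene, with CACGTG in capitals. Mnt lies on the plus strand (chr10:60197709-60197958), Max on the minus strand (chr6:101395291-101395540) and Mxd1 on the minus strand (chr4:120675130-120675379).
Mnt: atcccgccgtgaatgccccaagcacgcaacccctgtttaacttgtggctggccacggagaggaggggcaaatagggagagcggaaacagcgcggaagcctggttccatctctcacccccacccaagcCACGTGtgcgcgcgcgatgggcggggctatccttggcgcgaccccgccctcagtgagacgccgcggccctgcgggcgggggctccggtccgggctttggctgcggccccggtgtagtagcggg
Max: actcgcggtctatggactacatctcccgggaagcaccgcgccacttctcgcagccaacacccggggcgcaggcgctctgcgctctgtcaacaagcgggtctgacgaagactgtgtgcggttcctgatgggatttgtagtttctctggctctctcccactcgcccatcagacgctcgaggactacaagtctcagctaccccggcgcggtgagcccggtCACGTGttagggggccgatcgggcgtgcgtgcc
Mxd1: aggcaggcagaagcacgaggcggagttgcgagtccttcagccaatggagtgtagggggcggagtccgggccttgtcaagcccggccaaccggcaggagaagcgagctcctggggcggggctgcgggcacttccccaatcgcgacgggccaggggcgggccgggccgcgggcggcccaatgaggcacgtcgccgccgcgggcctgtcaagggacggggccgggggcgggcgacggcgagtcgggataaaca
The motif starts 123 bases before the start of Mnt and 33 bases before that of Max, and the window of Mxd1 does not hold these letters. CACGTG reads the same on both strands. Over windows from 250 bases before to 50 after each start, it occurred in 657 of 6372 genes that passed the signal filter and had a window (10.3%). It occurred in 3 of the 8 measured network genes with a window (Mnt, Max and Mlx). Myc itself and Mycn had no entry. A match is a stretch of letters, and binding was not measured.

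Beside Mnt, the other genes of the network differed in both directions. Of the 13 listed, 10 were measured and 7 passed the signal filter, and the median difference over the 10 was -0.05 after Met-ENK and -0.06 after β-END(1-9), beside 0 and -0.03 for all genes that passed. After quantile normalization the medians were 0.01 after Met-ENK and -0.07 after β-END(1-9), beside 0.06 and 0.04 for all genes that passed. Among the 7, calls were limited to Mnt, higher with both peptides and chosen on these values, and Mxd1, lower after Met-ENK. Of all genes, 0.692% were called higher and 6.02% lower after Met-ENK, and 0.559% and 2.27% after β-END(1-9). Mxd4, Mga and Mlxip are not analysed here.

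Max, the shared partner of Myc, Mnt and the Mxd proteins, had 11.05 as its log2 signal in control cells, 11.61 after β-END(1-9) and 11.25 after Met-ENK. It was higher on both peptide arrays than on the control array. The difference was 0.56 after β-END(1-9), or 1.48-fold and just short of the call, and 0.21 after Met-ENK. For β-END(1-9) it passed 1.5-fold after quantile normalization (0.67) and after a loess correction for signal level (0.63).

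Mxd1, an antagonist of Myc that is known for its induction when keratinocytes differentiate, went the other way from Mnt. Its log2 signal was 8.35 in control cells, 7.77 after β-END(1-9) and 7.69 after Met-ENK. Both peptide arrays were lower than the control array and close to the background limit. The difference was -0.66 after Met-ENK, called lower at 1.58-fold, where 6.02% of genes were called lower. With β-END(1-9) it was -0.58, or 1.49-fold and not called, where 2.27% of genes were called lower. Mxd1 depended on the scaling in both comparisons. After quantile normalization the Met-ENK difference was -0.56 and no longer called, and with each array centred on its median the β-END(1-9) difference was -0.62 and called.

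The remaining antagonists did not share the difference of Mnt. Mxi1 had a signal of 7.81 on all 3 arrays, identical to the last deposited digit. Mxd3 had 5.75 in control cells, 5.44 after β-END(1-9) and 5.33 after Met-ENK, all within the background range. Among the 4 measured antagonists, Mnt was thus higher with the peptides, Mxd1 lower and Mxi1 equal, and the signal of Mxd3 was at background level.

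Of the Myc paralogs, Mycn had 5.46 on the control and β-END(1-9) arrays and 5.01 after Met-ENK, within the background range. Mycl had 8.27 on the control and β-END(1-9) arrays and 8.32 after Met-ENK, a difference of 0.05. Mycl was above the highest background probe set (7.57) on all 3 arrays, as was Myc, and levels of different probe sets were not compared. Mlx, the partner of the glucose-responsive MondoA and ChREBP proteins, had 11.58 in control cells, 11.41 after β-END(1-9) and 11.48 after Met-ENK. Mlxipl, the gene of ChREBP, stayed between 4.01 and 4.35, within the background range.

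**Figure D2:**
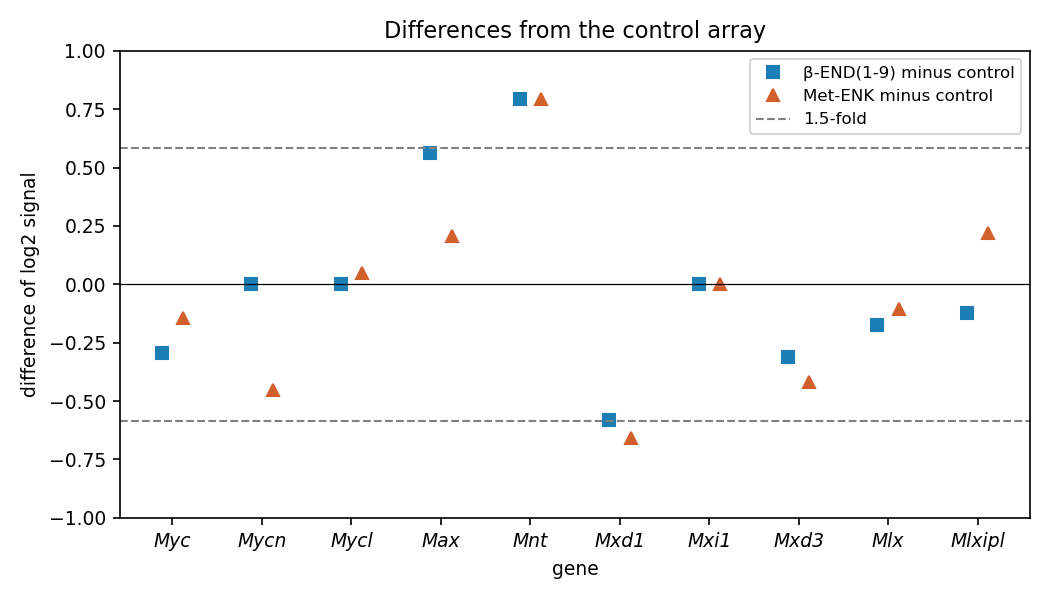
Difference of log2 signal from the control array (vertical axis) for the same 10 genes (horizontal axis), β-END(1-9) as squares and Met-ENK as triangles, 1 array each, and dashed lines at 1.5-fold (0.58 in either direction). Mnt stands at 0.79 for both peptides, Mxd1 at -0.58 and -0.66 and Max at 0.56 and 0.21, while Myc stays between -0.29 and -0.15; the control array is shared by all points.

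Genes that act on the transcription of Myc were mostly unequal in small steps. Of 17 measured, 6 were higher and 6 lower after Met-ENK, and 1 higher and 12 lower after β-END(1-9). The lower members were 35.3% and 70.6% of the list, beside 45.7% and 56.1% of all genes that passed the filter. The medians were 0 and -0.13, beside 0 and -0.03 for all genes that passed. Stat3, which carries cytokine signals to the Myc promoter, had 13.47 in control cells, 13.31 after β-END(1-9) and 13.93 after Met-ENK, a difference of 0.47 after Met-ENK. The cell cycle factor E2f1 had 8.02, 7.95 and 7.50 in the same order of arrays, and its Met-ENK signal was within the background range. Klf4, a factor of keratinocyte differentiation, was the single member called of the 16 that passed the filter, lower after β-END(1-9), beside 2.27% of all genes called lower there. Its signals were 8.40 in control cells, 7.81 after β-END(1-9) and 7.91 after Met-ENK, differences of -0.59 and -0.49. The β-END(1-9) value lay at the limit and was not called after quantile normalization (-0.50) or loess (-0.55).

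Among 15 measured genes that act on the stability of the Myc protein, 14 passed the filter and 1 was called, lower after Met-ENK, where 6.02% of all genes were called lower, so the count is near that share. Stub1, which encodes the ubiquitin ligase CHIP, had 8.79 in control cells, 8.75 after β-END(1-9) and 7.64 after Met-ENK. The Met-ENK array stood apart from the other 2, with a difference of -1.15 from control that stayed between -1.18 and -1.07 under the other scalings. The Met-ENK signal of Stub1 was just above the highest background probe set (7.57), which restricts how well this difference is known. Gsk3a and Gsk3b encode the kinases that mark Myc for degradation. Their differences after Met-ENK were 0.35 and 0.29, and after β-END(1-9) 0.15 and -0.03. Pim1, a kinase known to stabilise Myc, differed by -0.24 after Met-ENK and 0.04 after β-END(1-9). The ubiquitin ligase gene Skp2 differed by -0.26 and -0.06, with signals within the background range on every array. The RNA arrays do not measure the Myc protein.

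No cofactor of Myc or Mnt was called with either peptide (0 of 13 that passed the filter). Of all genes, 0.692% were called higher and 6.02% lower after Met-ENK, and 0.559% and 2.27% after β-END(1-9), so the absence of calls among 13 genes says nothing particular about the cofactors. Sin3b, a corepressor that Mnt and the Mxd proteins recruit, had 10.85 in control cells, 10.74 after β-END(1-9) and 10.57 after Met-ENK. Hdac2, the histone deacetylase of the same complex, had 10.49, 10.01 and 10.05, and was thus lower on both peptide arrays. Hdac1, its paralog in that complex, differed by -0.10 after Met-ENK and -0.11 after β-END(1-9). The corepressor gene Ncor1 had the highest positive difference of the list, with 14.68 in control cells, 14.65 after β-END(1-9) and 15.05 after Met-ENK, 0.38 above control. Sin3b, Hdac2 and Ncor1 thus did not share a direction after Met-ENK, and Hdac1 was named after its values were seen. Of the Myc coactivators, Trrap differed by 0.18 after Met-ENK and 0 after β-END(1-9), Wdr5 by -0.04 and -0.49, Ruvbl1 by -0.38 and -0.24 and Ruvbl2 by -0.27 and -0.29.

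Genes known to be induced by Myc, for nucleolar ribosome assembly, nucleotide synthesis and growth, had list medians near 0. Of 64 measured, 18 were higher and 34 lower after Met-ENK, and 9 higher and 40 lower after β-END(1-9). The lower members were 53.1% and 62.5% of the list, beside 45.7% and 56.1% of all genes that passed. The median difference was -0.03 after Met-ENK and -0.05 after β-END(1-9), beside 0 and -0.03 for all genes that passed the filter. Its sign was not stable. After quantile normalization the medians were 0.05 and 0.03, below those of all genes that passed (0.06 and 0.04). Calls after Met-ENK numbered 0 higher and 3 lower of 63 that passed the filter, beside 0.692% and 6.02% of all genes.

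The members called after Met-ENK were Fbl, Tmem97 and Paics. Fbl, the methyltransferase fibrillarin of the nucleolus, had 11.91 in control cells, 11.53 after β-END(1-9) and 10.97 after Met-ENK, a difference of -0.94 after Met-ENK. Tmem97, a sterol-linked membrane protein, had 11.91, 11.36 and 11.14, and Paics, an enzyme of purine synthesis, had 11.90, 11.44 and 11.26. In all 3 genes the β-END(1-9) array lay between control and Met-ENK. With β-END(1-9), 0 of the 63 members that passed the filter were called higher and 1 lower. That is 1.59% called lower, beside 0.559% of all genes called higher and 2.27% lower, so the count is near that share. The called member was the folate transporter gene Slc19a1, at -0.62. It was not called after quantile normalization (-0.53) or loess (-0.56).

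Some members of the list had differences in the opposite direction or at 0. Rrn3, an initiation factor of RNA polymerase I, was 0.54 higher after Met-ENK and 0.09 higher after β-END(1-9). The transferrin receptor gene Tfrc was 0.44 and 0.02 higher. Apex1, a DNA repair endonuclease, was 0.40 higher with either peptide. For the nucleolar phosphoprotein gene Npm1, the cyclin gene Ccnd2 and the pyrimidine synthesis gene Cad, signals were equal on all 3 arrays. Odc1, the ornithine decarboxylase gene often used as a readout of Myc, was lower with both peptides and not called, with 13.61 in control cells, 13.25 after β-END(1-9) and 13.18 after Met-ENK. Npm1, Ccnd2, Cad and Odc1 were named after their values were seen. In this list, 17 of 59 genes with a promoter window held CACGTG (28.8%), against the 10.3% given above.

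Genes known to be repressed by Myc had a median difference of 0 with both peptides, beside 0 after Met-ENK and -0.03 after β-END(1-9) for all genes that passed, and 0 of the 9 that passed the filter were called. With 6.02% of all genes called lower and 0.692% higher after Met-ENK, and 2.27% and 0.559% after β-END(1-9), that count is near the share of all genes. Cdkn1a, the gene of the cell cycle inhibitor p21, had 10.28 in control cells, 10.18 after β-END(1-9) and 10.21 after Met-ENK. Cdkn1b, which encodes p27, had 10.10, 9.77 and 10.05. The integrin gene Itga6 had the highest positive difference of the list, 0.49 after Met-ENK, and 0.01 after β-END(1-9).

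Ribosomal protein genes, which are part of the growth program of Myc, were lower after Met-ENK while Myc and the Myc-induced list differed little. The symbol pattern took 79 genes, including 6 genes of S6 kinases. The other 73 are proteins of the cytosolic ribosome and genes named after them. With Met-ENK, 68 of the 73 were lower, 2 higher and 3 equal. The lower ones were 93.2% of the 73, beside 45.7% of all genes that passed the filter. The median of the 73 was -0.47, beside 0 for all genes that passed. Of the 68 that passed, 25 were called lower and 0 higher, beside 6.02% and 0.692% of all genes. After quantile normalization, 17 of the 25 kept the call and 8 lost it, beside 4.52% of the same 7519 genes called lower, and with the other scalings 26 or 27 of the 68 were called, the 25 among them. Rpl37l1 had the largest difference, with 12.64 in control cells, 12.37 after β-END(1-9) and 11.42 after Met-ENK. Rpl19 (16.48, 16.21 and 15.56 in the same order) and Rps29 (18.97, 18.51 and 18.05) also had their lowest signal after Met-ENK. Copies of ribosomal protein genes are nearly identical in sequence, so signals of single members are uncertain.

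With β-END(1-9) the same 73 genes had a median of -0.13, and 56 were lower, 10 higher and 7 equal. The lower ones were 76.7% of the 73, beside 56.1% of all genes that passed the filter. No member that passed the filter was called (0 of 68), beside 2.27% of all genes called lower. Of the 5 below the filter, Rps4y2 was past 1.5-fold higher, at 2.95 in control cells and 3.96 after β-END(1-9), both at background level, and is named after its values were seen. After quantile normalization this median was -0.03 and the Met-ENK median was -0.35, beside 0.04 and 0.06 for all genes that passed. The order of the peptides was thus opposite in Myc and in the ribosomal protein genes, since the lower Myc signal was on the β-END(1-9) array (-0.29 against -0.15) and the lower ribosomal protein signals were on the Met-ENK array. The Myc difference between the peptides, 0.15, fell to 0.11 after quantile normalization and 0.09 after loess. The middle 95% of the 7519 genes lay between -0.60 and 0.54 in that comparison, so Myc was inside that range. Mnt was equal on the 2 peptide arrays. The 399 probe sets named as positive controls were also lower with the peptides, with a median difference of -0.23 after Met-ENK and -0.12 after β-END(1-9), and their part in these results was not tested. The ribosomal protein differences were among the values known when the genes were chosen. Among these genes, 5 of 61 with a window held CACGTG (8.20%).

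**Figure D3:**
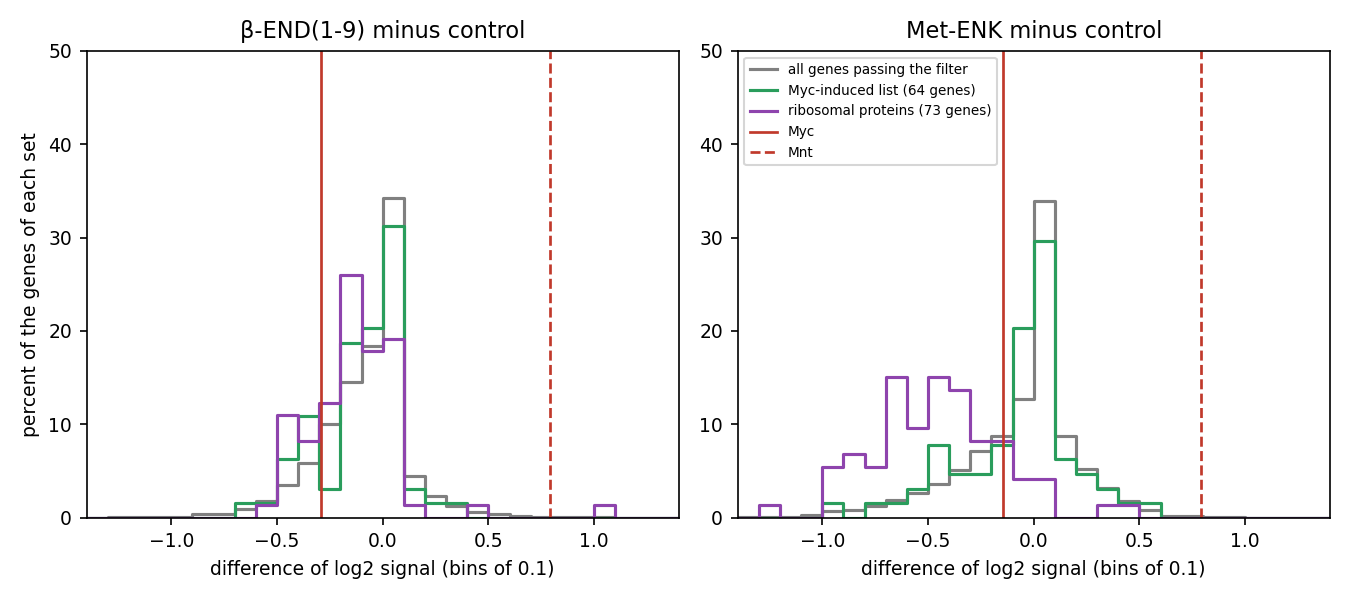
Percent of genes (vertical axis) by difference of log2 signal from control (horizontal axis, bins of 0.1) for β-END(1-9), left, and Met-ENK, right, for all genes that passed the filter, the 64 Myc-induced genes and the 73 ribosomal protein genes, with Myc and Mnt as vertical lines. The Myc-induced genes have medians of -0.05 and -0.03 beside -0.03 and 0 for all genes, the ribosomal protein genes lie lower after Met-ENK (median -0.47), and Mnt (0.79) lies above nearly all genes; exact ties fall in the bin that starts at 0.

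The genes most like each member were found by the distance between their pairs of differences from control, over the 3 arrays and the 7519 genes. For Mnt, 2 genes lay within 0.1, the chemokine gene Cxcl14 (0.77 after β-END(1-9) and 0.81 after Met-ENK) and Olfm1, a secreted glycoprotein (0.83 and 0.70). Insl3, an insulin-like peptide, followed with 0.65 and 0.72, the calcium pump gene Atp2a3 with 0.60 and 0.88, and Adam4l1 with 0.63 for both. Of these 5, 4 never exceeded the background range, and Olfm1 passed its upper limit on the β-END(1-9) array alone (7.62). Mnt was above it on all 3. The control signals of Cxcl14 (6.15) and Atp2a3 (6.19) were below 6.41, so these genes passed the filter only through their higher peptide arrays.

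For Myc, 196 genes lay within 0.1, so its pattern was a common one. The nearest were Lmbrd1, a lysosomal membrane protein (-0.29 after β-END(1-9) and -0.15 after Met-ENK), the pseudouridine synthase gene Pus7 (-0.28 and -0.15), Shisa5 (-0.28 and -0.15), the phospholipase gene Plcd3 (-0.30 and -0.16) and Ipp (-0.31 and -0.14). Likeness over 3 arrays with a shared control is a description.

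The direction of both members against control was the same under each scaling tried. For Mnt the differences lay between 0.75 and 0.88 and stayed past 1.5-fold for both peptides. Those of Myc lay between -0.33 and -0.08 and stayed below it. The Mnt difference exceeded the Myc difference by 0.94 after Met-ENK and 1.09 after β-END(1-9), of which Mnt contributed 0.79 in each case. Centring shifts a whole array, while quantile normalization and loess shift genes by amounts that vary with their signal, and none of them stands in for replicate cultures.

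**Figure D4:**
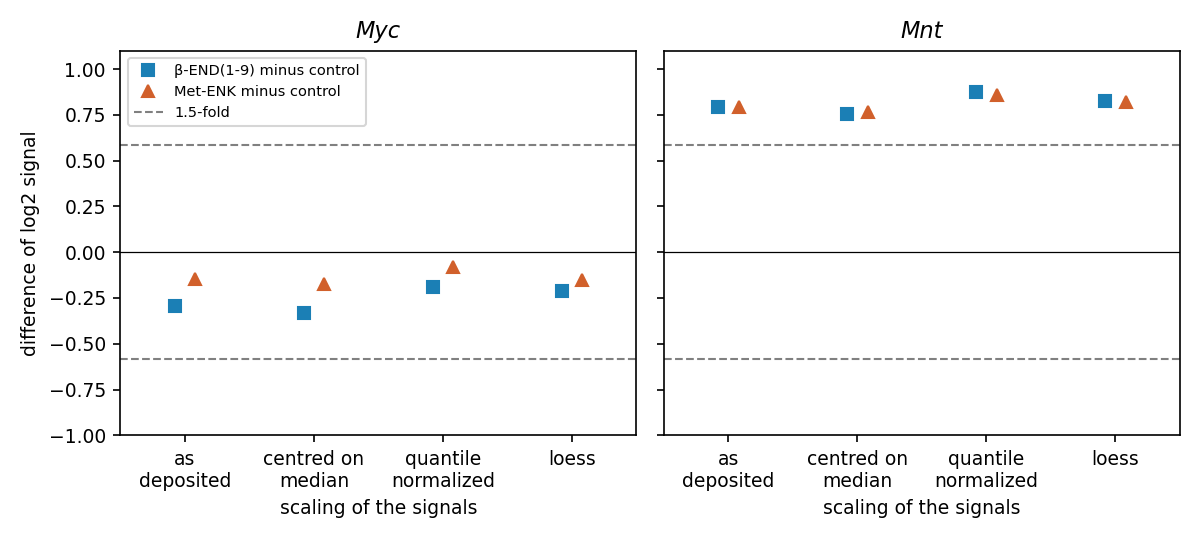
Difference of log2 signal from control (vertical axis) of Myc, left, and Mnt, right, for the deposited signals and 3 other scalings (horizontal axis), β-END(1-9) as squares and Met-ENK as triangles and dashed lines at 1.5-fold. Mnt stays between 0.75 and 0.88 and Myc between -0.33 and -0.08, on the same side of the 1.5-fold lines throughout.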

How the data were processed

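RNA of 3 FRSK cultures was measured on Affymetrix whole-transcript arrays, 1 per condition; sample titles gave the groups. The authors deposited 1 log2 signal per probe set and array. Per the submitters' processing notes, Affymetrix Expression Console, Transcriptome Analysis Console and RMA (background correction, quantile normalization and summary of probes) were used; versions, annotation release and build: not given in the sources used here. Precision is limited by the number of arrays.

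Of 24834 probe sets, 1646 are controls. The platform annotation gives 1 symbol for 15049 clusters, several for 0 and none for 8139, which are unnamed here; all 15049 Entrez identifiers were found in RefSeq for GRCr8. Where a gene had more than 1 probe set (10 genes), the brightest on average was kept. Genes entered counts at a mean of at least 6.41, and calls were made at 1.5-fold (python 3.11.15, pandas 2.3.3; loess with statsmodels 0.14.6). With 1 array per group no statistical test was run.

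The members, lists and the naming rule were chosen with earlier results of these data known. The text names Myc, Mnt and the network genes, and from each list members past 1.5-fold or among the 3 highest and 3 lowest differences, plus the 5 genes most like each member; other names are said to be chosen after their values were seen. Alternatives were 3 scalings, other filters and folds, and other summaries of lists.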

Additional observations from a re-analysis of the deposited data

How the results depend on the processing

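The differences of Myc and Mnt, the gap between them, the counts over all genes and the medians of the ribosomal protein and Myc-induced genes were recomputed under the alternatives that apply to each, and 83 of 102 recomputed values kept their direction, their side of 1.5-fold and, where not called, lay within 0.1 of the value given (counts within 1.5 times). Some of the 83 were fixed in advance and are no check. Myc and Mnt have 1 probe set each, so the mean of probe sets repeats their values. Centring cancels in the gap between them and moves every other difference by less than 0.1. Between the peptides, the deposited Mnt difference and Myc-induced median were 0. They had no direction to keep, and either sign was counted as kept. After quantile normalization the Myc difference for β-END(1-9) was -0.19. The ribosomal protein median of all 79 symbols after Met-ENK, -0.44 as deposited, was then -0.32, beside 0.06 for all genes that passed. The same scaling turned the Myc-induced median to 0.046 for Met-ENK and 0.028 for β-END(1-9), and loess turned the latter to 0.013. Quantile normalization, with the filter set again on the normalized signals, gave 91 genes called higher after Met-ENK. Without the signal filter, genes called higher numbered 448 after Met-ENK and 397 after β-END(1-9), and 296 were called lower after β-END(1-9). Most β-END(1-9) calls were thus higher without the filter and lower with it. Between the peptides, 377 were then higher and 459 lower after Met-ENK, against 142 and 203. With the filter at the highest background probe set, 22 genes were higher after Met-ENK and 14 after β-END(1-9). At 2-fold, 5 were higher and 56 lower after Met-ENK, 5 higher and 16 lower after β-END(1-9), and 6 higher and 16 lower between the peptides. The cause of these shifts was not tested, apart from the filters and the fold, which change how many genes can be called. No paired analysis was possible because each condition has 1 array. No array could be left out for the same reason. The control signal of Mnt, next to the background limit, restricts how well its fold is known.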

Other observations

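Targets of the related MondoA and ChREBP factors, which pair with Mlx, were also measured. Of 10 listed genes, 9 were measured and 5 passed the signal filter, and 0 of the 5 were called, beside 0.692% of all genes called higher and 6.02% lower after Met-ENK and 0.559% and 2.27% after β-END(1-9). Txnip, the thioredoxin-interacting protein known as a glucose-induced MondoA target, had 11.08 as its log2 signal in control cells, 11.06 after β-END(1-9) and 11.17 after Met-ENK. The fatty acid synthase gene Fasn had 12.30, 12.27 and 12.56 in the same order of arrays, a difference of 0.26 after Met-ENK. Scd, a fatty acid desaturase gene, had 8.54 on all 3 arrays. Klf10 had 10.17 in control cells, 9.96 after β-END(1-9) and 9.97 after Met-ENK. The median of the 9 measured genes was 0.03 after Met-ENK and 0 after β-END(1-9).

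The S6 kinase gene Rps6kb1, which the symbol pattern for ribosomal proteins also takes, had 13.47 in control cells, 13.36 after β-END(1-9) and 14.03 after Met-ENK. Its difference of 0.56 after Met-ENK was opposite in sign to the median of the ribosomal protein genes.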
